A study of Mus musculus with 9 samples.

Results

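De novo lipogenesis, the making of fatty acids from sugar carbon, was followed through 10 genes of the pathway in the liver of 3 mouse models. The genes were listed by name, and every probe set of the array that the platform annotation ties to one of them was taken, which gave 22 probe sets of 22626 that are not controls. Of the 10 genes, 9 had a probe set bright enough to be tested among 8879 genes, and Acaca was not. What sets the models apart is Cpr (NADPH-cytochrome P450 reductase), which hands electrons to the microsomal cytochrome P450 enzymes. By their names, liver-Cpr-null mice lack the enzyme in liver and Cpr-low mice have little of it. Cpr-lox mice served as the control. All were male, 2 months old, and of mixed C57BL/6 and 129/Sv background, with 8 or 9 mice per model whose liver RNA was combined into 3 pools per model. The labels call all 3 models transgenic, and the promoter that drives the deletion, the alleles behind the low level and the feeding state at collection are not stated in the material at hand. The transcript of Cpr itself is not analysed, and the model labels could not be checked against it.

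In the liver, glycolysis ends with pyruvate kinase (Pklr), and mitochondrial citrate is then exported and split in the cytosol by ATP citrate lyase (Acly) to acetyl-CoA. Acss2 makes the same acetyl-CoA from acetate, and malic enzyme (Me1) supplies NADPH. Acetyl-CoA carboxylase (Acaca) forms malonyl-CoA, fatty acid synthase (Fasn) builds palmitate from it, Elovl6 lengthens palmitate to stearate, and Scd1 introduces the double bond that gives oleate. Gpam attaches the first acyl chain to glycerol-3-phosphate, and Thrsp (Spot 14) is a small protein induced by thyroid hormone and by carbohydrate. Transcription of these genes is known to be raised by insulin through SREBP-1c and by sugar through ChREBP, and SREBP factors bind sterol response elements, often beside CCAAT and GC boxes.

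The stretches upstream of 4 members are printed as examples of some of the response patterns described below: Acly, higher in Cpr-low than in both other models, Acss2 and Fasn, with higher means in both models, and Thrsp, the most variable member between pools. The stretches of Me1 and Gpam, which followed other patterns, are not printed. Each run is the 250 bases before the annotated start, 5′ to 3′ on the gene's strand, from RefSeq promoters of GRCm38.p6: chr11:100528001-100528250 (minus strand) for Acly, chr2:155517793-155518042 (plus strand) for Acss2, chr11:120824548-120824797 (minus strand) for Fasn and chr7:97417551-97417800 (minus strand) for Thrsp. Capitals mark CCAAT boxes (CCAAT) and GC boxes (GGGCGG), read on both strands.
Acly: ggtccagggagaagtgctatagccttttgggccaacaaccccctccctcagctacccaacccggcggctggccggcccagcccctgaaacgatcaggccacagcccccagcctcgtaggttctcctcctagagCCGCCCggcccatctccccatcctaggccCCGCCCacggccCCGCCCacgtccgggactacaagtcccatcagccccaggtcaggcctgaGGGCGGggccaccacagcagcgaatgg
Acss2: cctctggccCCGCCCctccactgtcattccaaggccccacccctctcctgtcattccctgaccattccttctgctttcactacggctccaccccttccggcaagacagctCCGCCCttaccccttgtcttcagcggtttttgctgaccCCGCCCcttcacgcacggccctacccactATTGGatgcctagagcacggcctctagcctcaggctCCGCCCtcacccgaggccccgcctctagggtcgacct
Fasn: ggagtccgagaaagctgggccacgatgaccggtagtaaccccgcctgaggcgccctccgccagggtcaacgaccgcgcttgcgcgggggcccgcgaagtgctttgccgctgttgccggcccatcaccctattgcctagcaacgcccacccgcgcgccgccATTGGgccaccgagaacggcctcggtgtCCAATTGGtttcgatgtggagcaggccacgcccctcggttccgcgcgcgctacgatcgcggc
Thrsp: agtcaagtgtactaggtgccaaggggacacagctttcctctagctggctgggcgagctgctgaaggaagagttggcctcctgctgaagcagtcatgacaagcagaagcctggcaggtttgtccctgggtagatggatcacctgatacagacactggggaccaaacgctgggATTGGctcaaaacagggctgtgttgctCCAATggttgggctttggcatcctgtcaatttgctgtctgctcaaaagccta
The Acly stretch held 4 GC boxes and no CCAAT box, and the Acss2 stretch held 4 GC boxes and 1 CCAAT box. The Fasn stretch held 3 CCAAT boxes and no GC box, and the last pair of them overlap as a box and its reverse complement. The Thrsp stretch held 2 CCAAT boxes. Of the 10 members 9 had an entry, with 12 stretches in all. A CCAAT box was found in 6 of these 12 stretches against 33.8% of all 32851 stretches of the same length in the table, and a GC box in 4 of 12 against 32.7%. A sterol response element written TCACNCCAC was found in 0 of the 12 (1.05% of all stretches), and an E-box written CACGTG in 0 of the 12 (6.02%). These matches describe letters in a short window and carry no statement on what binds there.

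Every pool had its own Affymetrix MOE430A array. The deposited signals had medians of 171 to 179 per array and were scaled to a common trimmed mean. The labels call the pools independent without saying whether they share mice, and the p-values therefore reflect the spread among pools alone. Across tested genes, r was 0.984 to 0.995 within a model and 0.969 to 0.988 between models. The recorded hybridization time of the 3 Cpr-lox pools and of Cpr-low pool 1 was the same, and the other 5 arrays followed 1.7 to 3.22 hours later, across a change of date. This separates Cpr-lox from liver-Cpr-null completely. A fit with that date as a block therefore compares these models only through the Cpr-low pools. The Cpr-lox arrays were all scanned on the same date, and every array of the other models on another. Scan date thus separates Cpr-lox from both models completely, Cpr-low pool 1 included, and its part in the results was not tested. The hepatocyte gene Alb had signals of 24735 to 30971 in all arrays, while the adipocyte genes Adipoq (40.9 to 54.6) and Lep (51.5 to 58.9) were close to the lowest deposited signals, 25 or 26. Other genes of the adipocyte list were brighter, among them Retn (407 to 541) and Lipe (406 to 582). The level of RNA per cell and the number of cells of a type cannot be told apart in these bulk samples.

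Lipogenic genes rose in Cpr-low. In that model, 6 of the 9 tested members rose (Pklr, Acly, Acss2, Fasn, Elovl6 and Scd1) and 0 fell against Cpr-lox at an adjusted p under 0.05, where 2.31% of all tested genes rose and 3.48% fell. In liver-Cpr-null, 3 members rose (Acss2, Elovl6 and Scd1) and 1 fell (Gpam), against 3.66% and 3.44% of all tested genes. Directly between the models, 1 member was higher in liver-Cpr-null than in Cpr-low (Me1) and 3 were lower (Pklr, Acly and Gpam), against 4.66% and 3.76% of all tested genes. The members' median log2 fold change was 0.75 in Cpr-low and 0.63 in liver-Cpr-null, both against Cpr-lox, beside 0.04 and -0.04 over all tested genes, and -0.37 between liver-Cpr-null and Cpr-low, beside -0.08. The comparisons with Cpr-lox share the control pools. Tests were made with limma across all tested genes with Benjamini-Hochberg adjustment, and log2 fold changes (± SE) are differences of log2(signal + 16), a scale that compresses the changes of dim genes. The count in Cpr-low fell from 6 to 4 without Cpr-low pool 1 or pool 3 and to 5 without any other single pool. The count of members called in liver-Cpr-null against Cpr-lox fell from 4 to 2 without Cpr-lox pool 1, Cpr-lox pool 2, liver-Cpr-null pool 1 or liver-Cpr-null pool 3. The count between liver-Cpr-null and Cpr-low fell from 4 to 2 without Cpr-low pool 1, Cpr-low pool 2 or liver-Cpr-null pool 2, and to 1 without liver-Cpr-null pool 1 or pool 3. With the arrays scaled to a common median in place of the trimmed mean, 2 members were called in liver-Cpr-null and 4 in Cpr-low. Acss2 (adjusted p = 0.0984) and Gpam (adjusted p = 0.146) lost their calls in the first, and Pklr (adjusted p = 0.0735) and Elovl6 (adjusted p = 0.0710) in the second. Directly between the models, 2 were then higher and 2 lower in liver-Cpr-null. In that comparison Gpam (adjusted p = 0.205) lost its call and Elovl6 (adjusted p = 0.0457) gained one.

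**Figure D1:**
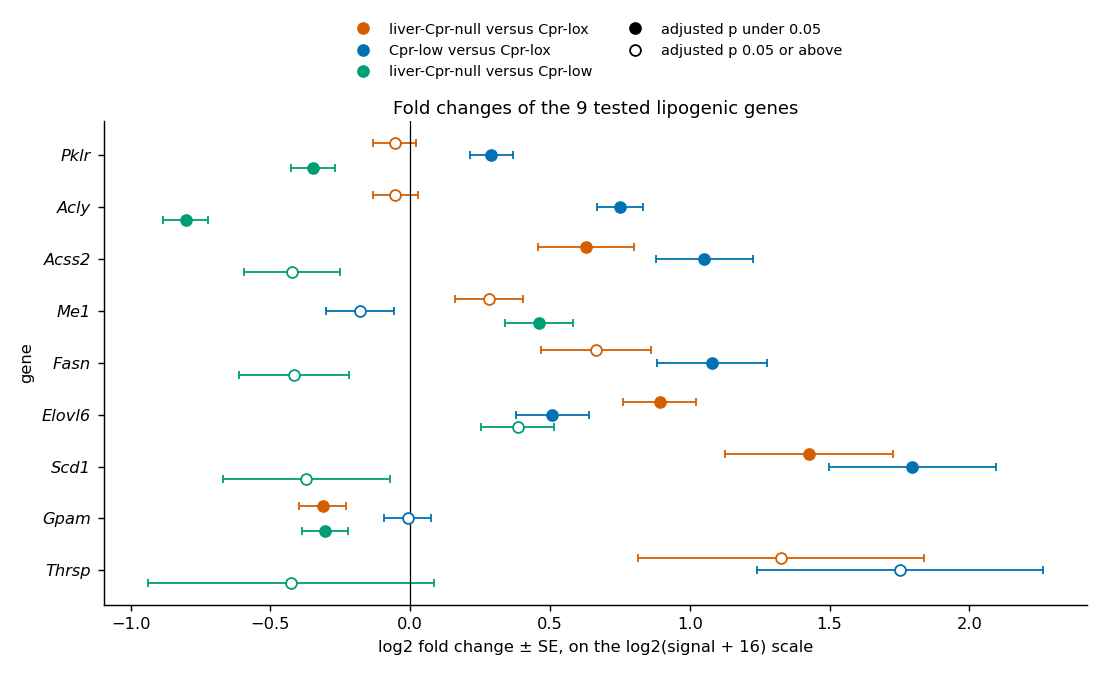
Log2 fold changes ± SE (limma, n = 3 pools per model) of the 9 tested lipogenic genes in the 3 comparisons, with filled points for an adjusted p under 0.05. Acly lies at 0.75 for Cpr-low and -0.05 for liver-Cpr-null, whereas Scd1 lies at 1.80 and 1.43.

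In the fit without a block, Kupffer cell and hepatocyte markers moved with liver-Cpr-null. Against Cpr-lox, 3.66% of all tested genes rose and 3.44% fell in that model (2.31% and 3.48% in Cpr-low). Of 8 tested stellate cell markers 1 was higher in liver-Cpr-null than in Cpr-lox. Of 7 endothelial cell, 5 lymphocyte and 2 cholangiocyte markers tested, 0 were called there. In Cpr-low 1 endothelial cell marker was higher, and no other marker of these 4 lists was called. Of 11 tested Kupffer cell markers 9 were higher in liver-Cpr-null than in Cpr-lox and 0 in Cpr-low, and their summed signal was 9963 to 12798 in liver-Cpr-null, 7296 to 7837 in Cpr-lox and 6841 to 7554 in Cpr-low. Of 10 tested hepatocyte markers 4 were lower in liver-Cpr-null than in Cpr-lox and 1 was lower in Cpr-low, and 0 were higher in either. Their summed signal was 136390 to 141501 in liver-Cpr-null, 154617 to 159594 in Cpr-lox and 152872 to 157058 in Cpr-low. Beta-actin control probe sets, a sign of RNA quality, had 3′ signals over 5′ signals of 1.62 to 1.99 in liver-Cpr-null and of 1.17 to 1.43 in the other arrays. The same ratio for the Gapdh control was 2.34 to 2.48 in liver-Cpr-null, 2.60 to 2.79 in Cpr-lox and 2.36 to 2.72 in Cpr-low. Against Cpr-low, 8 of the Kupffer cell markers were higher in liver-Cpr-null, beside 4.66% of all tested genes. Of the hepatocyte markers 4 were lower and 0 higher in that comparison, beside 3.76% and 4.66%. With the hybridization date as a block, 1 Kupffer cell marker was higher and 2 hepatocyte markers were lower in liver-Cpr-null than in Cpr-lox. Against Cpr-low, 8 Kupffer cell markers were higher in liver-Cpr-null and 0 hepatocyte markers were called. In Cpr-low against Cpr-lox, that fit called 2 hepatocyte markers lower and 1 higher, and 0 Kupffer cell markers. It also called 1 endothelial cell marker lower there, and 1 stellate cell and 1 lymphocyte marker higher. Over all tested genes, it called 1.68% in liver-Cpr-null and 12.3% in Cpr-low against Cpr-lox, in either direction. Between liver-Cpr-null and Cpr-low it called 5.79%. Of 9 adipocyte markers 6 had a named probe set, and their summed signal was 1132 to 1321 in Cpr-lox, 1197 to 1405 in Cpr-low and 1123 to 1189 in liver-Cpr-null. The Cpr-lox range overlapped both others, while every liver-Cpr-null pool lay below every Cpr-low pool. Of the 2 that were tested, Lipe was lower in liver-Cpr-null than in Cpr-low (-0.36, adjusted p = 0.0455) and Retn was not called. Under the block on hybridization date neither was called. The part of any of these in the lipogenic results was not tested.

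Acly, which splits citrate, was higher in Cpr-low than in both other models. Its signal was 948, 925 and 874 in the 3 Cpr-lox pools, 1518, 1449 and 1692 in the Cpr-low pools and 883, 836 and 928 in the liver-Cpr-null pools. Every Cpr-low pool lay above every pool of the other models, whose ranges overlapped. Acly rose 1.68-fold in Cpr-low, or 0.75 ± 0.08 on the log2 scale (adjusted p = 2.04e-04), and was lower in liver-Cpr-null than in Cpr-low by -0.80 ± 0.08 (adjusted p = 1.52e-04). Against Cpr-lox, liver-Cpr-null stood at -0.05 ± 0.08 with a 95% interval of -0.23 to 0.12 (adjusted p = 0.810). The rise in Cpr-low and the difference between the models passed the test under every alternative computed.

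Pklr, the liver pyruvate kinase, had the same order at a smaller size. Its signal was 542, 508 and 469.7 in Cpr-lox, 627, 642 and 599 in Cpr-low and 478, 517 and 464 in liver-Cpr-null. The Cpr-low pools lay above all others. The log2 fold change was 0.29 ± 0.08 in Cpr-low (adjusted p = 0.0468) and -0.06 ± 0.08 in liver-Cpr-null (adjusted p = 0.783, 95% interval -0.22 to 0.11), and -0.35 ± 0.08 between liver-Cpr-null and Cpr-low (adjusted p = 0.0162). The call in Cpr-low stood close to the threshold: it was lost without any single pool other than Cpr-lox pool 1 (adjusted p = 0.0521 to 0.158). The difference between the models was lost without Cpr-low pool 2, liver-Cpr-null pool 1 or liver-Cpr-null pool 3 (adjusted p = 0.0654 to 0.0686).

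Acss2, which activates acetate, was higher in both models. Its signal was 687, 597 and 881 in Cpr-lox, 1592, 1228 and 1709.9 in Cpr-low and 1306, 858 and 1221 in liver-Cpr-null. The Cpr-low pools lay above all Cpr-lox pools, while liver-Cpr-null pool 2 lay below Cpr-lox pool 3. The log2 fold change was 1.05 ± 0.17 in Cpr-low (adjusted p = 0.00279, 2.07-fold) and 0.63 ± 0.17 in liver-Cpr-null (adjusted p = 0.0443, 1.55-fold). The difference between the models, -0.42 ± 0.17, did not pass the test (adjusted p = 0.148, 95% interval -0.80 to -0.05). The call in Cpr-low held under every alternative computed, and that in liver-Cpr-null was lost without Cpr-lox pool 1 or 2, Cpr-low pool 1, or liver-Cpr-null pool 1 or 3 (adjusted p = 0.0578 to 0.184).

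Me1, a source of cytosolic NADPH, went the other way between the models. Its brightest probe set gave 1362, 1731 and 1458 in Cpr-lox, 1269.6, 1141 and 1623 in Cpr-low and 1908, 1822 and 1784 in liver-Cpr-null. The liver-Cpr-null pools lay above all others, and the other models overlapped. Me1 was higher in liver-Cpr-null than in Cpr-low by 0.46 ± 0.12 (adjusted p = 0.0351), and the comparisons with Cpr-lox gave 0.28 ± 0.12 (adjusted p = 0.235) for liver-Cpr-null and -0.18 ± 0.12 (adjusted p = 0.468) for Cpr-low. The call between the models was lost without Cpr-low pool 1 or 2 or any liver-Cpr-null pool (adjusted p = 0.0678 to 0.131). The second Me1 probe set had the narrower spread: 1137, 1208 and 1043 in Cpr-lox, 1082, 947 and 1174 in Cpr-low and 1543, 1561 and 1419 in liver-Cpr-null. In the fit over probe sets it was higher in liver-Cpr-null than in Cpr-lox by 0.41 ± 0.09 (adjusted p = 0.0193) and than in Cpr-low by 0.50 ± 0.09 (adjusted p = 0.00732).

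**Figure D2:**
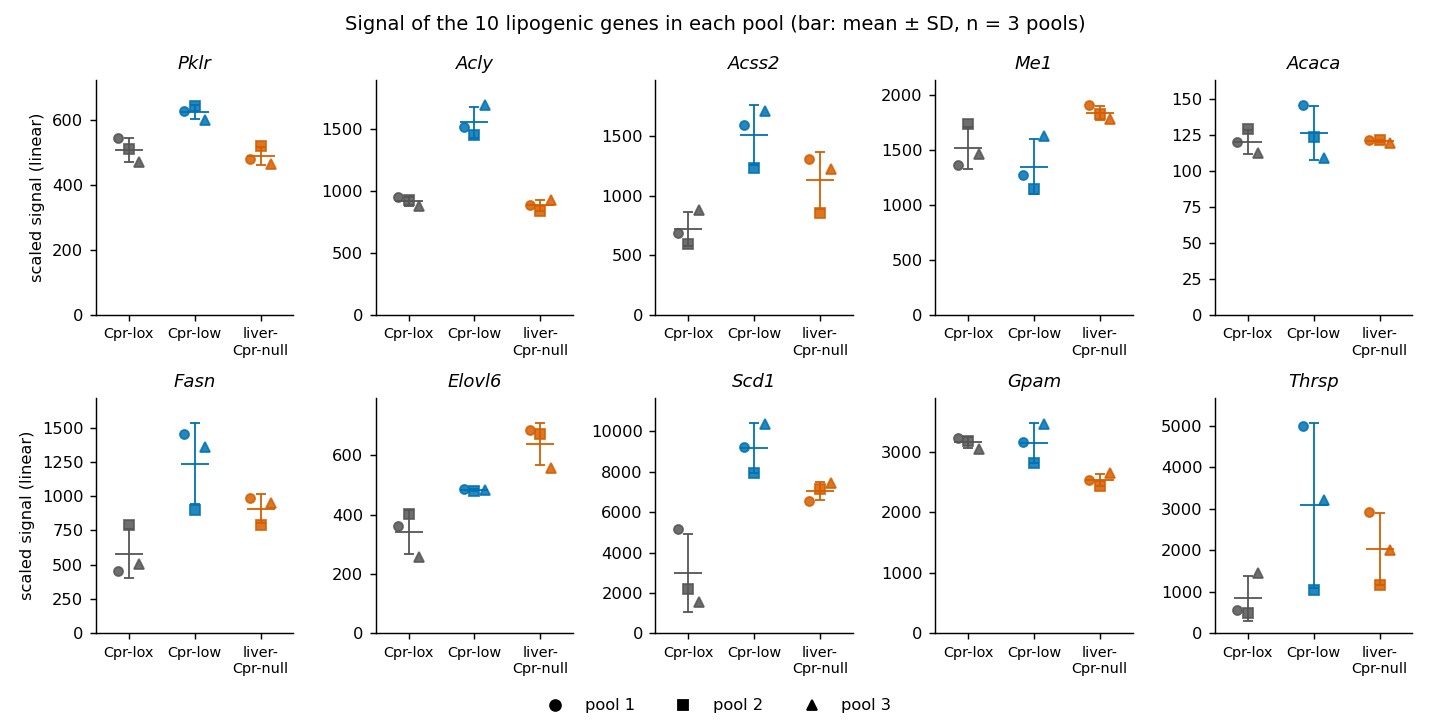
Scaled linear signal of the brightest probe set of each of the 10 genes in every pool, with the mean ± SD over 3 pools of a model; each panel has its own axis from 0. The Cpr-low pools of Acly (1449 to 1692) lie above all other pools, and the Thrsp pools of Cpr-low spread from 1043 to 4995.

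The enzymes that commit carbon to palmitate gave 1 dim and 1 variable signal. Acaca, whose product malonyl-CoA feeds the synthase, had a single probe set with 120, 129 and 112 in Cpr-lox, 146, 124 and 109 in Cpr-low and 121, 121 and 119.5 in liver-Cpr-null. The 3 models overlapped, and its mean fell below the lowest kept signal of 128, so it was not tested. Fasn had 455, 787 and 503 in Cpr-lox, 1453, 903 and 1356 in Cpr-low and 985, 788 and 953 in liver-Cpr-null. Every Cpr-low pool exceeded every Cpr-lox pool, and the lowest liver-Cpr-null pool lay just above Cpr-lox pool 2. Fasn rose in Cpr-low by 1.08 ± 0.20 on the log2 scale (adjusted p = 0.00574, 2.11-fold), a call that held under every alternative computed. In liver-Cpr-null the difference from Cpr-lox was 0.66 ± 0.20 and missed the threshold (adjusted p = 0.0647, 95% interval 0.24 to 1.09). As single pools were left out it ran from 0.51 without Cpr-lox pool 1 (adjusted p = 0.242) to 0.90 without Cpr-lox pool 2 (adjusted p = 0.0109). It passed the test without that pool and without Cpr-low pool 2 (0.66, adjusted p = 0.0375) and missed it in the other 7 cases. Between the models Fasn differed by -0.42 ± 0.20 (adjusted p = 0.202).

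Elovl6, the elongase of palmitate, rose in both models and had its highest mean in liver-Cpr-null. The Elovl6 signal was 362, 401 and 258 in Cpr-lox, 486, 479 and 484 in Cpr-low and 684, 672 and 559 in liver-Cpr-null. The 3 models did not overlap, with Cpr-low between the others. Elovl6 rose by 0.89 ± 0.13 in liver-Cpr-null (adjusted p = 0.00116, 1.86-fold) and by 0.51 ± 0.13 in Cpr-low (adjusted p = 0.0391). The difference between the models, 0.39 ± 0.13, did not pass the test (adjusted p = 0.0924, 95% interval 0.10 to 0.67). The call in liver-Cpr-null held without any single pool, while that in Cpr-low was lost without Cpr-lox pool 1 or 3 or any Cpr-low pool (adjusted p = 0.0517 to 0.112), and its size was 0.33 without Cpr-lox pool 3. A second, dim Elovl6 probe set that was not tested had 103, 101 and 85.8 in Cpr-lox, 123, 108 and 109.7 in Cpr-low and 171, 143 and 132 in liver-Cpr-null, again without overlap.

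Scd1, the main stearoyl-CoA desaturase of liver, had the largest fold change of the members that passed the test. Its signal was 5184, 2203 and 1566 in Cpr-lox, 9221, 7948 and 10380.2 in Cpr-low and 6572, 7161 and 7461 in liver-Cpr-null. No pool of either model overlapped Cpr-lox, where pool 1 stood 3.31-fold above pool 3, and the liver-Cpr-null pools lay below the Cpr-low pools. The log2 fold change was 1.80 ± 0.30 in Cpr-low (adjusted p = 0.00320, 3.47-fold) and 1.43 ± 0.30 in liver-Cpr-null (adjusted p = 0.0112, 2.69-fold), and -0.37 ± 0.30 between the models (adjusted p = 0.400, 95% interval -1.02 to 0.28). Without Cpr-lox pool 2 the value in liver-Cpr-null was 1.30 and missed the threshold (adjusted p = 0.0528). A dimmer Scd1 probe set did not show the spread of the control: 131, 142 and 147 in Cpr-lox, 369, 241 and 388 in Cpr-low and 304, 200.1 and 240.0 in liver-Cpr-null. Its Cpr-lox values lie near the lowest kept signal of 128. The order of the Cpr-lox pools was the reverse of that in the brighter probe set. The background step is unknown, and its part in this was not tested. In the fit over probe sets this dimmer one rose by 1.14 ± 0.16 in Cpr-low (adjusted p = 0.00167) and by 0.74 ± 0.16 in liver-Cpr-null (adjusted p = 0.0173).

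Gpam, which starts glycerolipid assembly, was the only tested member lower in liver-Cpr-null than in both other models by the test. Its signal was 3232, 3182 and 3043 in Cpr-lox, 3155, 2810.3 and 3461 in Cpr-low and 2527, 2433 and 2643 in liver-Cpr-null. The liver-Cpr-null pools lay below all others, and Cpr-low spanned the Cpr-lox range. Gpam fell by 0.31 ± 0.08 on the log2 scale against Cpr-lox (adjusted p = 0.0382) and by 0.30 ± 0.08 against Cpr-low (adjusted p = 0.0399), and Cpr-low stood at -0.01 ± 0.08 against Cpr-lox (adjusted p = 0.961, 95% interval -0.19 to 0.17). The fall against Cpr-lox was lost without any single Cpr-lox or liver-Cpr-null pool (adjusted p = 0.0591 to 0.125). The difference from Cpr-low was lost without any single pool other than Cpr-lox pool 3 and Cpr-low pool 2 (adjusted p = 0.0514 to 0.130). With median scaling, neither the fall against Cpr-lox (adjusted p = 0.146) nor that against Cpr-low (adjusted p = 0.205) was called. A dimmer Gpam probe set had -0.15 ± 0.08 against Cpr-lox in liver-Cpr-null (adjusted p = 0.323).

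Thrsp had large mean differences that did not pass the test. Its signal was 569, 502 and 1462 in Cpr-lox, 4995, 1043 and 3210.3 in Cpr-low and 2927, 1169.9 and 2006.5 in liver-Cpr-null. Cpr-lox pool 3 lay above pool 2 of both other models, so the models overlapped. The log2 fold change was 1.75 ± 0.51 in Cpr-low (adjusted p = 0.0675, 95% interval 0.65 to 2.86) and 1.33 ± 0.51 in liver-Cpr-null (adjusted p = 0.166, 95% interval 0.22 to 2.43). As single pools were left out, the value in Cpr-low ran from 1.27 without Cpr-low pool 1 (adjusted p = 0.274) to 2.39 without Cpr-low pool 2 (adjusted p = 0.00778). It passed the test without that pool and without Cpr-lox pool 3 (2.23, adjusted p = 0.0259) and missed it in the other 7 cases. A second Thrsp probe set, with means of 266 ± 139 in Cpr-lox, 794 ± 501 in Cpr-low and 502 ± 228 in liver-Cpr-null (SD, n = 3 pools), was not called either.

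Where a gene had several probe sets bright enough to test, they moved alike in direction for every called difference. The 22 probe sets held 18 that were tested over 13576 probe sets. In Cpr-low 9 of 18 rose and 0 fell, where 5.33% of all probe sets were called in either direction. In liver-Cpr-null 4 rose and 1 fell, against 6.7%. Between liver-Cpr-null and Cpr-low 2 were higher and 5 lower, against 8.29%. All 3 tested Acly probe sets rose in Cpr-low, by 0.57 to 0.82, and were lower in liver-Cpr-null than in Cpr-low, by -0.80 to -0.53. Adjusted over probe sets, Acss2 in liver-Cpr-null (adjusted p = 0.0541) and Pklr in Cpr-low (adjusted p = 0.0537) missed the threshold. The remaining Acly probe sets, at 37.9 to 59.9 and 26.6 to 32.1, were near the array minimum and not tested.

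**Figure D3:**
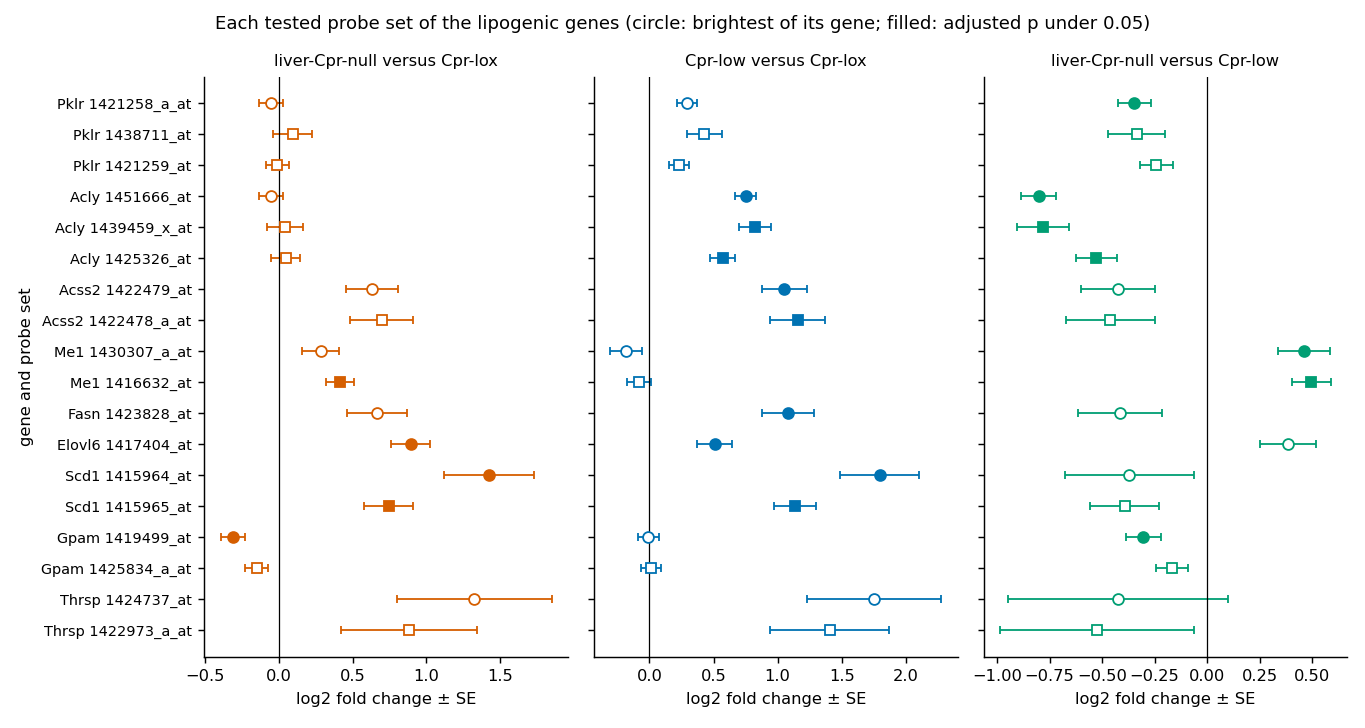
Log2 fold changes ± SE from the fit over 13576 probe sets for the 18 tested probe sets of the members (n = 3 pools per model), with filled symbols for an adjusted p under 0.05. The 3 Acly probe sets lie at 0.57 to 0.82 in Cpr-low and both Me1 probe sets lie above 0 in liver-Cpr-null.

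The members differed widely in how much pools of the same model varied. The within-model SD on the log2 scale was 0.90 for Thrsp, 0.53 for Scd1, 0.33 for Fasn and 0.28 for Acss2, at percentiles of 98.3 for Acss2 up to 99.98 for Thrsp among tested genes, whose median was 0.10. Gpam (0.096), Acly (0.085) and Pklr (0.079) lay below that median. Cpr-low pool 2 was the lowest of its model for 8 of the 9 tested members, Pklr being the exception. In liver-Cpr-null pool 2 was lowest for 5 members and in Cpr-lox pool 3 was lowest for 5. How often these pools were lowest over all tested genes was not computed. The counts therefore cannot be read as particular to the members. The mean of the members' standardised log2 values was 0.77, 0.13 and 0.97 in the Cpr-low pools, 0.18, -0.14 and 0.04 in the liver-Cpr-null pools and -0.58, -0.53 and -0.84 in the Cpr-lox pools, so that all Cpr-lox pools lay lowest.

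**Figure D4:**
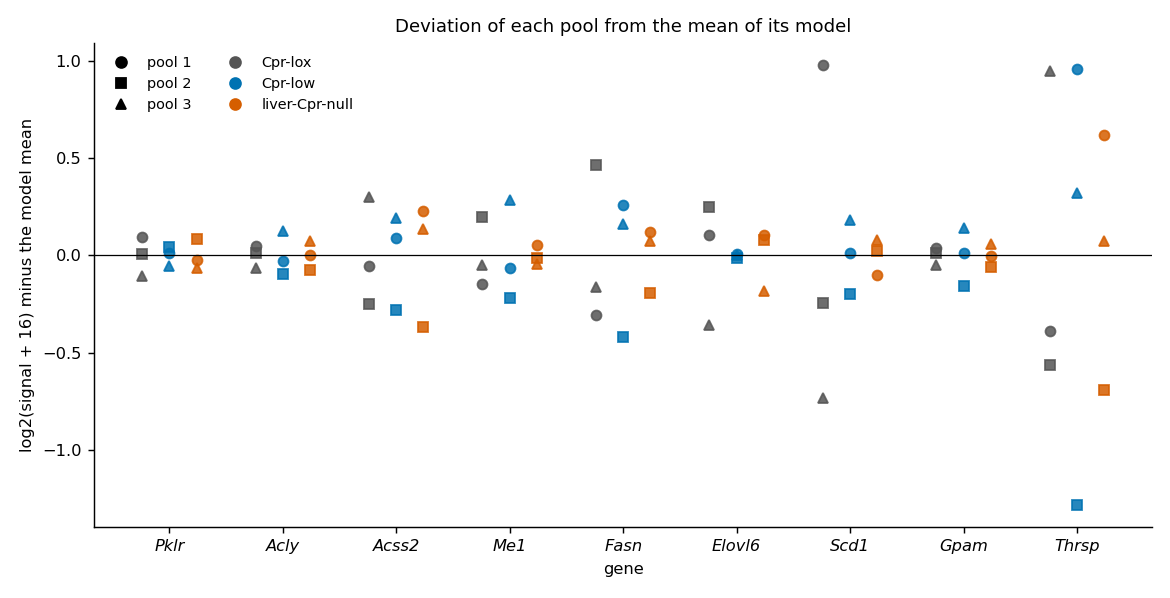
Deviation of each pool's log2(signal + 16) from the mean of its model for the 9 tested genes, with pools by symbol and models by colour. Thrsp and Scd1 spread most (within-model SD 0.90 and 0.53), and Acly and Pklr least (0.085 and 0.079).

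With the recorded hybridization date as a block, the comparison of Cpr-low with Cpr-lox rests on Cpr-low pool 1, the only pool of its model hybridized at the time of Cpr-lox, so it does not measure the spread between Cpr-low pools at that time. In this fit 5 members were called in Cpr-low against Cpr-lox, where 12.3% of all tested genes were called in either direction. They were Acly (0.72 ± 0.11, adjusted p = 0.00555), Acss2 (1.14 ± 0.26, adjusted p = 0.0197), Fasn (1.34 ± 0.28, adjusted p = 0.0150), Scd1 (1.81 ± 0.46, adjusted p = 0.0310) and Thrsp (2.71 ± 0.66, adjusted p = 0.0275). In liver-Cpr-null against Cpr-lox 0 members were called, where 1.68% of genes were. The sizes there were 0.91 for Elovl6 (adjusted p = 0.0869), 1.45 for Scd1 (adjusted p = 0.207), 0.76 for Acss2 (adjusted p = 0.231) and -0.30 for Gpam (adjusted p = 0.303). Between liver-Cpr-null and Cpr-low, Pklr (-0.34, adjusted p = 0.0385) and Acly (-0.82, adjusted p = 7.86e-04) were called, where 5.79% of genes were. The hybridization date of Cpr-lox holds Cpr-low pool 1, scanned on another date, and the 3 Cpr-lox pools. Within this hybridization date alone, the sizes come from the same 4 pools and are no second result. Acly, Acss2, Fasn and Thrsp were called there, while Scd1 (adjusted p = 0.0506), Elovl6 (adjusted p = 0.147) and Pklr (adjusted p = 0.171) were not, and the single pool is assumed to vary like the others.

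**Figure D5:**
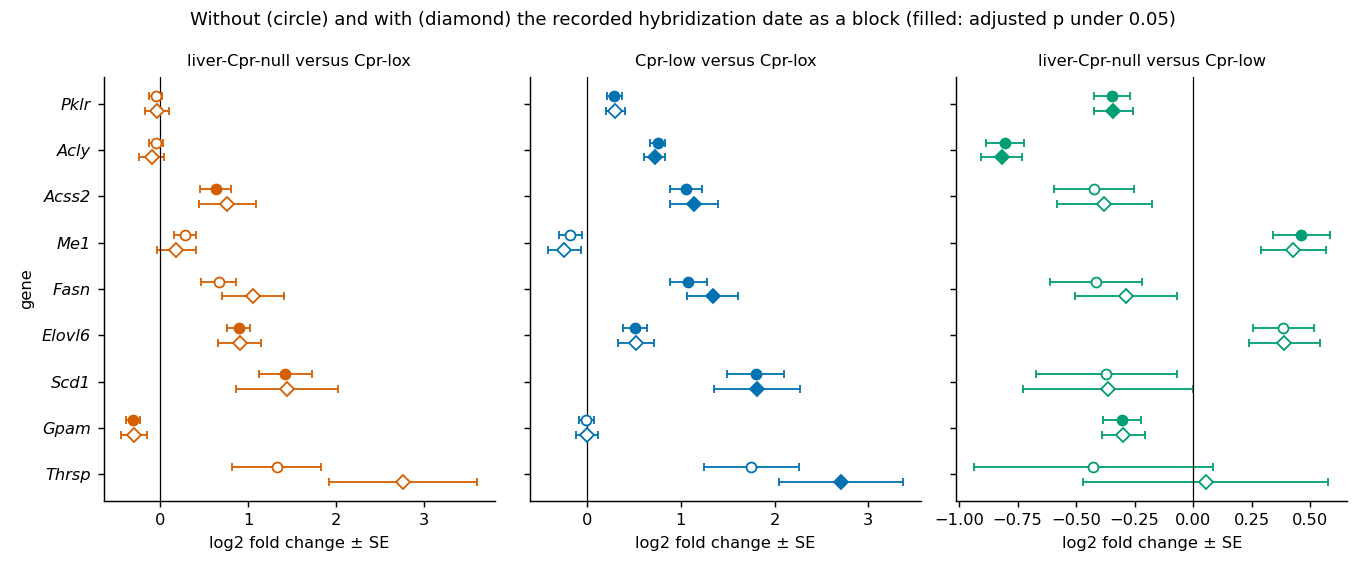
Log2 fold changes ± SE of the 9 tested genes without (circles) and with (diamonds) the recorded hybridization date as a block, filled for an adjusted p under 0.05. The block widens the errors against Cpr-lox most for liver-Cpr-null, and leaves Acly in Cpr-low at 0.72 beside 0.75.

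Among regulators of lipogenic transcription, 2 of 21 tested rose in Cpr-low and 0 fell, beside 2.31% and 3.48% of all tested genes. In liver-Cpr-null 1 rose and 1 fell, beside 3.66% and 3.44%. Compared with Cpr-low, 1 was higher and 2 were lower in liver-Cpr-null, beside 4.66% and 3.76%. With the hybridization date as a block, 2 rose and 1 fell in Cpr-low, and 0 rose and 0 fell in liver-Cpr-null. Compared with Cpr-low, 0 were higher and 1 was lower in liver-Cpr-null in that fit. It called 12.3%, 1.68% and 5.79% of all tested genes in these 3 comparisons, in either direction. Srebf1, which encodes the SREBP-1 factors, had a mean signal of 857 ± 271 in Cpr-lox, 1628 ± 500 in Cpr-low and 679 ± 76.7 in liver-Cpr-null (SD, n = 3 pools). It rose in Cpr-low by 0.91 ± 0.22 (adjusted p = 0.0262) and was lower in liver-Cpr-null than in Cpr-low by -1.20 ± 0.22 (adjusted p = 0.00459), with -0.29 ± 0.22 in liver-Cpr-null against Cpr-lox (adjusted p = 0.564). The rise in Cpr-low was lost without Cpr-lox pool 1 or 2 or Cpr-low pool 1 or 2 (adjusted p = 0.0715 to 0.124), and the difference between the models was not lost without any single pool. Mid1ip1, a partner of acetyl-CoA carboxylase and relative of Thrsp, had means of 176 ± 18.4, 315 ± 73.8 and 187 ± 45.8 in the same order. It rose by 0.77 ± 0.17 in Cpr-low (adjusted p = 0.0162), a call lost without Cpr-lox pool 2 or Cpr-low pool 1, and was lower in liver-Cpr-null than in Cpr-low by -0.71 ± 0.17 (adjusted p = 0.0219), a call lost without Cpr-low pool 1 or liver-Cpr-null pool 1 or 2 and under the hybridization block (adjusted p = 0.0869). Pparg, a nuclear receptor of fat storage, rose in liver-Cpr-null by 0.59 ± 0.09 (adjusted p = 0.00119), from signals of 274 to 289.6 in Cpr-lox to 374 to 474 in its pools. This call was lost with the hybridization date as a block (0.58, adjusted p = 0.0853). Ppargc1b was the regulator that fell in liver-Cpr-null, by 0.44 ± 0.10 (adjusted p = 0.0151). Its call was lost without Cpr-lox pool 3 or liver-Cpr-null pool 2 or 3, and with the block (-0.40, adjusted p = 0.240). Mlxipl, which encodes ChREBP and is named for its role after its values were seen, had means of 1587 ± 244, 2016 ± 200.1 and 1603 ± 77.9 in the same order and passed no test (adjusted p = 0.0981 in Cpr-low, 0.938 in liver-Cpr-null and 0.0959 between them).

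Enzymes around the pathway moved in mixed directions. Over all tested genes, 3.66% rose and 3.44% fell in liver-Cpr-null, and 2.31% rose and 3.48% fell in Cpr-low. Of 13 tested genes of citrate and NADPH supply, 5 rose and 1 fell in each model against Cpr-lox. Pgd, an NADPH-producing enzyme of the pentose phosphate pathway, rose by 0.86 ± 0.10 in liver-Cpr-null (adjusted p = 2.70e-04) and by 0.44 ± 0.10 in Cpr-low (adjusted p = 0.0212). The gene that fell in both models was Pcx, pyruvate carboxylase, by -0.60 ± 0.09 in liver-Cpr-null (adjusted p = 0.00116) and -0.43 ± 0.09 in Cpr-low (adjusted p = 0.0115). Under the hybridization block the counts were 0 and 0 in liver-Cpr-null and 1 and 1 in Cpr-low. In that fit 1.68% and 12.3% of all tested genes were called in these models, in either direction. Pgd in liver-Cpr-null (adjusted p = 0.0565) and Pcx in both models (adjusted p = 0.0941 and 0.0585) missed the threshold there. Of 15 tested enzymes of other acyl chains, 1 rose and 5 fell in liver-Cpr-null and 0 rose and 3 fell in Cpr-low. Elovl2, which lengthens polyunsaturated chains, fell by 0.63 ± 0.10 in liver-Cpr-null (adjusted p = 0.00177) and by 0.88 ± 0.10 in Cpr-low (adjusted p = 2.44e-04), and both calls held with the block. Elovl3, an elongase of saturated and monounsaturated chains, fell by 0.71 ± 0.10 in liver-Cpr-null (adjusted p = 9.74e-04) and missed the threshold with the block (adjusted p = 0.0805). With the block, 0 genes of this list rose and 1 fell in liver-Cpr-null and 0 rose and 3 fell in Cpr-low.

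Of 12 tested genes of triglyceride synthesis, 0 rose and 1 fell in liver-Cpr-null and 1 rose and 1 fell in Cpr-low. Agpat3 fell in both, by 0.29 ± 0.07 (adjusted p = 0.0310) and 0.43 ± 0.07 (adjusted p = 0.00441), and Dgat2, which completes triglycerides, rose in Cpr-low by 0.29 ± 0.07 (adjusted p = 0.0376). The Dgat2 call and the Agpat3 call in liver-Cpr-null were lost without several single pools (adjusted p up to 0.161 and 0.130). Under the block on hybridization date, the call of Agpat3 in liver-Cpr-null was lost (adjusted p = 0.109), and the list had 0 rising and 0 falling there and 2 and 2 in Cpr-low. Of 9 tested glycolysis genes, 2 rose in Cpr-low (Khk by 0.59 ± 0.09, adjusted p = 0.00178, and Gckr by 0.36 ± 0.09, adjusted p = 0.0385) and 0 in liver-Cpr-null. The Gckr call was lost without 6 of the 9 pools, each Cpr-lox pool among them (adjusted p = 0.0526 to 0.171) and under the block (adjusted p = 0.189). Sterol synthesis, which SREBP factors also control, had 12 of 15 tested genes higher in Cpr-low and 9 of 15 in liver-Cpr-null, and 0 lower in either, with 11 and 3 higher when the hybridization date was a block. Beside the counts of these lists, 2.31% of all tested genes rose and 3.48% fell in Cpr-low, and 3.66% rose and 3.44% fell in liver-Cpr-null. With the block, 12.3% and 1.68% were called in these models, in either direction.

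The 8 genes outside the list whose log2 values followed the members' standardised mean most closely over the 9 arrays were Rpgrip1 (Pearson r = 0.97), Sqle (0.95), Xdh (0.95), Nsdhl (0.94), Idi1 (0.94), Cd96 (0.94), Fdps (0.93) and Srr (0.93). Sqle, Nsdhl, Idi1 and Fdps are enzymes of sterol synthesis. The arrays share their models and scaling, so these values are a description only. Each member is itself part of that mean, so its own r cannot be set beside those of the outside genes. Among the members, r was 0.93 for Fasn, 0.89 for Acss2, 0.84 for Scd1, 0.79 for Acly, 0.78 for Thrsp, 0.60 for Pklr, 0.55 for Elovl6, 0.13 for Gpam and -0.07 for Me1.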

How the data were processed

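Liver RNA pools of 3 mouse models, 3 pools per model, were measured on Affymetrix MOE430A arrays from 5 micrograms of total RNA each, per the labels and file headers. Values deposited by the authors are whole-number intensities on a linear scale, 1 per probe set. No source at hand names their software, background correction or scaling, and an unknown background step can change the folds of dim genes. Signals were scaled to a common 2% trimmed mean, since array trimmed means differed by 10.2%, and values were log2(signal + 16). The brighter 60% of probe sets (mean log2 value) entered the fit, each gene through its brightest one. Of 22690 probe sets 64 were controls, and of the rest 20380 had 1 gene symbol in the platform annotation, 691 several and 1555 none listed. Only those with 1 symbol were named. A single limma 3.58.1 model (R 4.3.3, lmFit, eBayes with trend) took all 9 arrays, with two-sided tests and Benjamini-Hochberg adjustment over all genes, and was checked on simulated data. The number of arrays limits the precision.

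The members, the related lists and the marker lists were chosen with earlier results of these data known. Genes outside the members were named by rule: up to 4 called genes of a related list and comparison with the smallest adjusted p, the 8 genes most alike, hepatocyte and adipocyte markers; the text names part of these. Pool numbers were not taken as pairs, since the deviations of same-numbered pools from their model means correlated at -0.21 to 0.46. Alternatives changed the pseudocount (1, 64), scaling, filter (none, upper 40%), trend, probe set choice, blocks and pools. Figures used matplotlib (Python).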

Additional observations from a re-analysis of the deposited data

How the results depend on the processing

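Of 558 fold changes of members under an alternative, 467 kept their direction and side of the threshold, 69 lost a call, 12 gained one and 10 changed sign, of which 0 were called. Only values first called could lose a call, so the 69 are not to be read as a share of all 558. Pklr in Cpr-low lost its call in 14 of 21 alternatives, and Gpam between liver-Cpr-null and Cpr-low in 11 of 21. The calls of Acly in Cpr-low and between the models, and of Acss2 and Fasn in Cpr-low, held in all alternatives run. Blocking on the recorded hybridization date, calls over all genes were 149 for liver-Cpr-null against Cpr-lox and 1090 for Cpr-low against Cpr-lox, and lipogenic genes called were 0 for liver-Cpr-null against Cpr-lox and 2 for liver-Cpr-null against Cpr-low. Within one date, 465 genes and 2 lipogenic genes were called for liver-Cpr-null against Cpr-low. Liver-Cpr-null and Cpr-lox share no date, so no such value exists for them. Lipogenic genes called for liver-Cpr-null against Cpr-lox were 2 with median scaling and 2 with the deposited scaling. The cause of these changes was not tested.

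Leaving out a pool gave 355 to 756 genes and 2 to 5 lipogenic genes for liver-Cpr-null against Cpr-lox, 278 to 491 and 4 to 5 for Cpr-low against Cpr-lox, and 404 to 796 and 1 to 5 for liver-Cpr-null against Cpr-low. The pool number as a replicate block, which does not pair the samples, gave 834, 673 and 1047 genes and 5, 7 and 6 lipogenic genes in the same order. Median scaling turned the split of higher and lower genes from 325 and 305 to 304 and 145 for liver-Cpr-null against Cpr-lox, from 205 and 309 to 102 and 249 for Cpr-low against Cpr-lox, and from 414 and 334 to 524 and 131 for liver-Cpr-null against Cpr-low. The deposited scaling gave 335 and 204 for the first and 521 and 179 for the last.

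Values that changed sign were small. With the probe set of largest variance, Pklr and Acly in liver-Cpr-null against Cpr-lox were 0.091 and 0.042. Gpam in Cpr-low against Cpr-lox was 0.017 with quantile normalization, 0.0016 with the date as a block and 0.0016 within one date, and -0.081 to 0.068 as single pools were left out. Thrsp in liver-Cpr-null against Cpr-low was 0.053 with the date as a block and 0.053 within one date, and -1.07 to 0.053 as single pools were left out. The 3 pools per model and the unknown background step limit what can be seen for dim genes such as Acaca.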
